A study of Mus musculus with 6 samples.

Results

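The genes described here are the amino acid response genes of ATF4, a list of 40 genes fixed by name (Atf4 itself, its partner factors, stress effectors, amino acid transporters, biosynthetic enzymes and cytosolic tRNA synthetases). They were taken from the deposited table by gene symbol, or by the earlier symbol without the final 1 for 10 tRNA synthetases, and 38 of the 40 were among the 19505 genes measured. Pycr1 and Aars1 had no named probe set here and were not analysed. For the 1 member with more than 1 probe set, the probe set with the highest mean over the arrays was used. The samples were salivary glands of mouse embryos at a stage written as T13, kept in culture for 72 hours, and the study asked what TGF-β1 does to them. The groups were glands given TGF-β1 (TGF-β1 1 to 3) and glands given nothing (controls 1 to 3), with 1 array per sample and 6 arrays in all. The sources used here name no strain, gland type or dose of TGF-β1, nor how many glands or embryos went into a sample. They do not say whether replicates were separate cultures, so a p-value reflects the spread among these 6 samples alone, and that spread may be technical.

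ATF4 is a transcription factor that is made more of when cells phosphorylate the translation factor eIF2α, which kinases do when amino acids run short, when unfolded protein builds up in the endoplasmic reticulum or under other stresses. It binds composite elements in DNA together with C/EBP proteins and switches on genes that import amino acids, make them and charge them onto tRNA, along with factors such as CHOP (encoded by Ddit3) and TRIB3 that shape or end the response. Because ATF4 is controlled mainly at translation, its own transcript need not follow its activity. TGF-β is a secreted factor that signals through receptor kinases and Smad proteins.

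All values are log2 expression values of the authors' table, and a difference is TGF-β1 minus control on the log2 scale. Control 3 stood apart from the other arrays: its Pearson correlation with them over all genes lay between 0.550 and 0.601, against 0.974 to 0.990 among TGF-β1 1, TGF-β1 2, control 1 and control 2, and 0.948 to 0.953 between TGF-β1 3 and those 4. Gapdh was at 6.21 in control 3 and at 11.87 to 11.98 in the others. Differences are therefore given from a limma fit of the 6 arrays with array weights, which estimated a weight of 0.0338 for control 3, 0.398 for TGF-β1 3 and 1.65 to 4.52 for the others. A gene is said to have fallen or risen where its adjusted p was under 0.05 in that fit. The same fit without control 3 and TGF-β1 3 (the 4-array fit) and the fit of 6 arrays without weights are given beside it. The array-weighted p-values are smaller than they should be, since the weights count as known. On simulated arrays that fit called 82 unchanged genes, more than its threshold allows, and both other fits called 0. Of 100 genes given a change of 1 log2 unit, the array-weighted fit recovered 84%, and of 100 given 2 units, 98%. Set beside these, its 82 false calls were far above the share that a threshold of 0.05 allows. The 4-array fit recovered 4% and 61%, and the unweighted fit 0% and 0%. The simulated control 3 scattered at random around each gene's mean, whereas the real control 3 shifted sets of genes together. The rates of the 2 fits with all 6 arrays may therefore not carry over to these data. Not passing in the 4-array fit, or in the unweighted fit that called 0 genes of these data, says little about whether a gene changed.

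Of the 38 measured members, 20 fell in the TGF-β1 glands (52.6%), 0 rose and 18 did not pass. Over all genes, 3.44% fell and 3.45% rose. The members were chosen with earlier results of these data known, so the contrast with all genes is a description and not a test. All 38 had a negative difference, where 49.1% of all genes did, and the median difference was -0.67 over the members and 0.01 over all genes. In the 4-array fit 11 of the 38 fell (28.9%), against 1.45% of all genes, and these 11 were among the 20. The other 9 had differences between -1.30 and -0.51 in the 4-array fit (median -0.74), against -1.19 to -0.52 in the array-weighted fit (median -0.69). Without control 3 the array-weighted count was 15 (1.53% of all genes fell there), and without TGF-β1 3 it was 6 (1.03%). It was 0 without TGF-β1 1, TGF-β1 2, control 1 or control 2, where hardly any gene passed in either direction (0.041%, 0.0615%, 0% and 0% of all genes). The array-weighted median over the members turned positive without control 1 (0.27) and without control 2 (0.21), where control 3 was 1 of the 2 controls left. It was -0.73 to -0.61 without any 1 of the other 4 arrays. Without a TGF-β1 array, control 2 had a weight of 0.0118 to 0.0753 and control 1 a weight of 6.90 to 10.4. The controls there were nearly control 1 alone, so those medians do not check both controls. With equal weights, 0 of the 38 passed (0% of all genes), with 3 members, all lower, and 0.533% of all genes lower at an unadjusted p under 0.05 (389 genes in both directions). The unweighted median over the members was -0.08, near the -0.14 over all genes, and 21 members were negative and 17 positive. With equal weights and without control 3, 0 members passed (0% of all genes), and the median was -0.66. In that fit 28 members had an unadjusted p under 0.05, each lower in TGF-β1 glands, where 3.99% of all genes were lower at that threshold.

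The values of single arrays stand behind these counts. TGF-β1 1 lay below both control 1 and control 2 for 37 of the 38 members, TGF-β1 2 for 36 and TGF-β1 3 for 32, and the shares over all genes were 34.3%, 37.6% and 41.5%. All 3 TGF-β1 arrays lay below controls 1 and 2 for 30 members (78.9%), against 12.3% of all genes. Control 3 lay below controls 1 and 2 for 34 of the 38, against 37.0% of all genes, and it was the lowest of the 6 arrays for 29 members. Relative to the mean of controls 1 and 2, the members' median was -0.68, -0.68 and -0.66 in TGF-β1 1 to 3 and -2.18 in control 3, where the median of all genes was 0.45. Of 13 measured genes that every cell uses, the median in control 3 was -3.42. With all 3 controls counted, the groups failed to overlap for only 5 members, Slc7a11, Yars1, Aldh18a1, Sesn2 and Pck2, each lower in TGF-β1 glands (13.2%, against 5.78% of all genes).

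**Figure D1:**
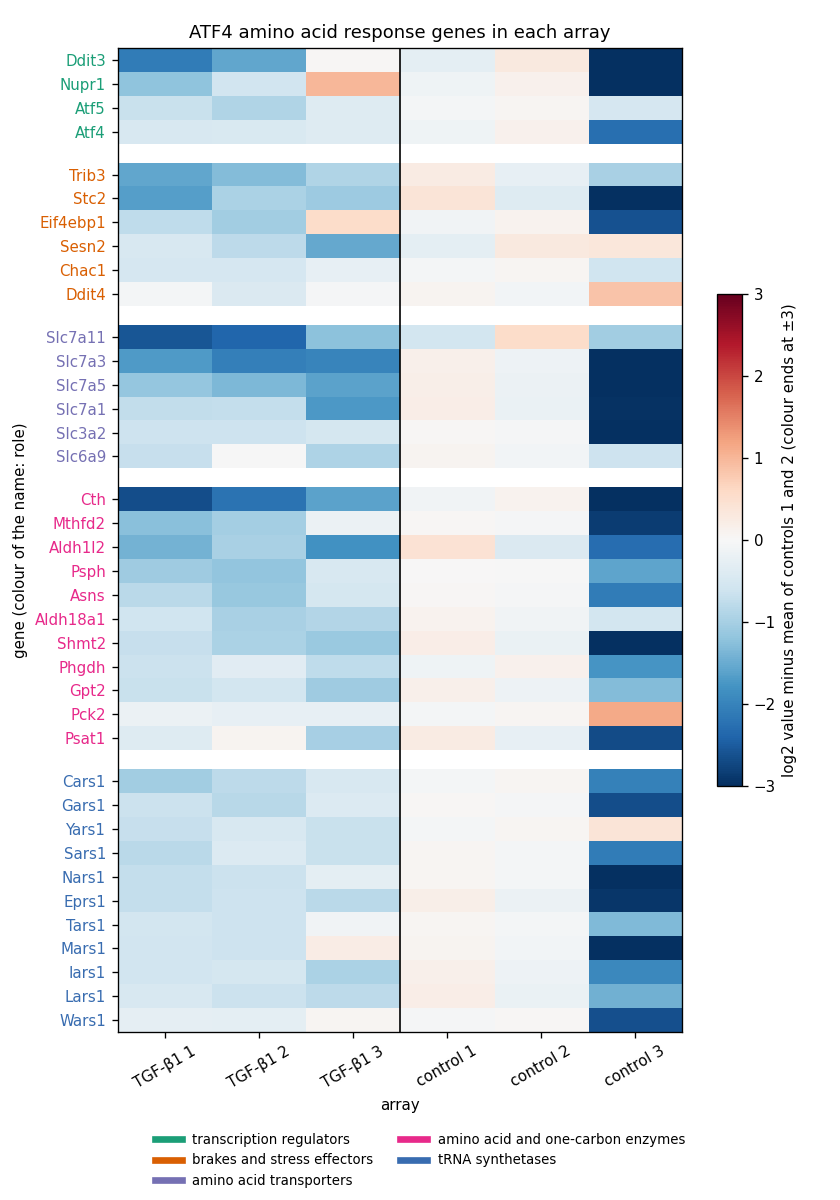
Each row is a member and each column an array, with colour for its log2 value relative to the average of controls 1 and 2 (blue lower, red higher; names coloured by role). TGF-β1 1 and 2 are blue in nearly every row, TGF-β1 3 is red for members such as Nupr1 and Eif4ebp1, and control 3 is dark blue in most rows but red for members such as Pck2 and Ddit4.

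The members were also compared in their promoter sequence. ATF4 is known to bind C/EBP-ATF response elements whose core reads TGATGNAA, where N is any base. In the RefSeq promoter table for build GRCm38.p6 (250 bases before to 50 after the start of a transcript), 31 of the 40 members had an entry and 12 of these (38.7%) held TGATGNAA on either strand, against 4.51% of 27025 genes and 3.97% of 32851 promoters. The cyclic AMP response element TGACGTCA was in 0 of the 31 (2.03% of genes) and the ER stress response element in 0 (0.137% of genes). The 12 were Chac1, Trib3, Slc7a11, Yars1, Asns, Gars1, Nupr1, Iars1, Pck2, Tars1 and the unmeasured Aars1 and Pycr1. Of the 10 measured members with a match, 6 fell, with a median difference of -0.65, and of the 19 in the table without one, 8 fell, with a median of -0.64. The members were listed as genes of the ATF4 response, so a share of matches above that of all genes could be foreseen and is not a result of these arrays. A match is a string of letters and not a shown binding site.

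The promoters of the 6 fallen members with a match are given 5′ to 3′ on the strand of the gene with the match in capitals. They are shown because they are the fallen members that carry the letters ATF4 is known to bind. Slc7a11 (chr3:50443564-50443863, minus strand) held 2 matches in opposite orientation, at bases -66 to -59 and -47 to -40 from the start. Trib3 (chr2:152344011-152344310, minus strand) held 1 just inside the transcript, at bases 15 to 22. Asns (chr6:7693160-7693459, minus strand) held 1 at -23 to -16, Yars1 (chr4:129189653-129189952, plus strand) at 4 to 11, Gars1 (chr6:55037751-55038050, plus strand) at -30 to -23 and Chac1 (chr2:119350992-119351291, plus strand) at -193 to -186.

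Slc7a11: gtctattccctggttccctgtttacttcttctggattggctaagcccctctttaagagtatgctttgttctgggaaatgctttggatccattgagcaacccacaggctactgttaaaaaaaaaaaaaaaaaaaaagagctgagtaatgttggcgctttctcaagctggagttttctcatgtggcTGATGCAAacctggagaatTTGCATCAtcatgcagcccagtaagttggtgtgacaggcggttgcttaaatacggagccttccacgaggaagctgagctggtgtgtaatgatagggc

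Trib3: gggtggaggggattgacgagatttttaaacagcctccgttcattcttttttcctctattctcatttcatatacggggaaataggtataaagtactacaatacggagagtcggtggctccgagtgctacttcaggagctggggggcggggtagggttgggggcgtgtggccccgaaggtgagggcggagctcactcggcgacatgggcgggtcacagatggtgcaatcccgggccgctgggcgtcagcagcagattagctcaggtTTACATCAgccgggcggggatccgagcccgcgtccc

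Asns: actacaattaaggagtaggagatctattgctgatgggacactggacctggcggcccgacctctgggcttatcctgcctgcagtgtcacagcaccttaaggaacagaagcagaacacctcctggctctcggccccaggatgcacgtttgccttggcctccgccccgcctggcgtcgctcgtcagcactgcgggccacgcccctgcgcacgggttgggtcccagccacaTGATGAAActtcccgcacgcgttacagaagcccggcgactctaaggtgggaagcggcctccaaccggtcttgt

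Yars1: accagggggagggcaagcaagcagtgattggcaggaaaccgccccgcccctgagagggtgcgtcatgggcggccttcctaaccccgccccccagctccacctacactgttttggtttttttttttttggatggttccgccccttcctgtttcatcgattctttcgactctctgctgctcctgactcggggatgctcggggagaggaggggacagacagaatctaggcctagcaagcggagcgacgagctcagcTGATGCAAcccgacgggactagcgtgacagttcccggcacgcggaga

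Gars1: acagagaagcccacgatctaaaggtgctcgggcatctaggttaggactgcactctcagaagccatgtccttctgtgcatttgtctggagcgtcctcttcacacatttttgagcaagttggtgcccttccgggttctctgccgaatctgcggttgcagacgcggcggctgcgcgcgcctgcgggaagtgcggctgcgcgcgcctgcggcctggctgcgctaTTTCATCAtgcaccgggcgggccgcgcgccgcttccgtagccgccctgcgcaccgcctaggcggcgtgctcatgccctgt

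Chac1: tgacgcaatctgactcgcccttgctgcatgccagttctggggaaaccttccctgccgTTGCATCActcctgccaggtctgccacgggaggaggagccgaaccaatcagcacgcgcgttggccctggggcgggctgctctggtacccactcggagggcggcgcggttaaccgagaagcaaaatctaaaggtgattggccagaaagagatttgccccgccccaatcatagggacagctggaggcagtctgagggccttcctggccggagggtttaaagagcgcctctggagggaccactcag

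Among the transcription regulators, 2 of 4 fell and their median difference was -0.84. Ddit3, which encodes CHOP, the factor of prolonged stress, was at 9.44, 9.98 and 11.57 in TGF-β1 1 to 3, against 11.26, 11.83 and 7.55 in controls 1 to 3. TGF-β1 3 lay between controls 1 and 2 and so did not share the low level of the other TGF-β1 glands. Ddit3 fell by 1.91 ± 0.30 (SE, 3.76-fold, adjusted p = 0.0037), with a difference of -1.83 in the 4-array fit (adjusted p = 0.0232). The Ddit3 and Mars1 gene ranges share 71 bases on opposite strands of chromosome 10, and how the array's probes divide there is not given. The identifier of the Ddit3 probe set marks it as unmapped, unlike those of the other members. That it measures Ddit3 rests on the annotated gene symbol. Atf5, a related factor whose translation is also raised by eIF2α phosphorylation, was at 8.17, 7.93 and 8.46 in TGF-β1 glands, against 8.77, 8.91 and 8.34 in controls. It fell by 0.76 ± 0.15 (1.69-fold, adjusted p = 0.0101) and had a difference of -0.79 in the 4-array fit, which did not pass there (adjusted p = 0.0536).

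Atf4 itself was at 9.91, 9.91 and 9.997 in TGF-β1 glands, against 10.24, 10.51 and 8.11 in controls. It lay below controls 1 and 2 in all 3, by an amount that did not pass (-0.51, 95% interval -0.86 to -0.17, adjusted p = 0.0765). Nupr1, a small stress-induced chromatin protein, was at 11.21, 11.83 and 13.40 in TGF-β1 glands, against 12.27, 12.55 and 8.61 in controls, so that TGF-β1 3 was the highest of all arrays. Its difference was -0.91 (interval -1.56 to -0.26, adjusted p = 0.0962).

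Of the 6 brakes and stress effectors, 5 fell. Trib3, a pseudokinase induced by ATF4 and CHOP that restrains them in turn, was at 8.24, 8.49 and 8.89 in TGF-β1 glands, against 10.03, 9.55 and 8.81 in controls. All 3 TGF-β1 arrays lay under controls 1 and 2, and TGF-β1 3 stood just above control 3. Trib3 fell by 1.32 ± 0.18 (2.49-fold, adjusted p = 0.0016), with a difference of -1.43 in the 4-array fit (adjusted p = 0.0238). Stc2, a secreted stress-induced glycoprotein, was at 7.01, 7.70 and 7.57, against 9.06, 8.26 and 5.22 in controls, and fell by 1.19 ± 0.26 (adjusted p = 0.0181). Controls 1 and 2 stood apart in Stc2 as well. Sesn2, a sestrin that senses leucine and restrains the growth kinase complex mTORC1, was at 6.99, 6.70 and 5.95, against 7.20, 7.77 and 7.81 in controls, with no overlap between the groups. Sesn2 fell by 0.78 ± 0.20 (adjusted p = 0.0379).

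Chac1, an enzyme that breaks down glutathione, was at 7.32, 7.32 and 7.58 in TGF-β1 glands, against 7.78, 7.88 and 7.24 in controls. Its fall was the smallest among the 20, by 0.52 ± 0.14 (1.43-fold, adjusted p = 0.0427). Eif4ebp1, which binds the cap-binding factor eIF4E and holds back translation, was at 8.70, 8.40 and 10.01, against 9.36, 9.55 and 6.84 in controls, TGF-β1 3 being the highest array. It fell by 0.81 ± 0.22 (adjusted p = 0.0485), with a difference of -0.91 in the 4-array fit (adjusted p = 0.0438). Ddit4, another restraint on mTORC1 that is also induced by low oxygen and glucocorticoids, was at 6.74, 6.36 and 6.78, against 6.87, 6.73 and 7.65 in controls, and did not pass (-0.16, interval -0.50 to 0.18). Of these genes Trib3 and Eif4ebp1 passed in the 4-array fit, while Stc2 (adjusted p = 0.0832), Chac1 (0.122) and Sesn2 (0.199) did not.

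The transporters held the deepest fall of the list. Slc7a11, the subunit that imports cystine in exchange for glutamate and that is also a target of the oxidative stress factor Nrf2, was at 6.65, 6.83 and 7.97 in TGF-β1 glands, against 8.66, 9.75 and 8.17 in controls. The groups did not overlap, control 3 included. Controls 1 and 2 differed by 1.09 in Slc7a11, the largest such gap of the members (median 0.21). Slc7a11 fell by 2.67 ± 0.27 (6.35-fold, adjusted p = 3.47e-04), with a difference of -2.46 in the 4-array fit (adjusted p = 0.0222). Slc7a3, a carrier of arginine and lysine, was at 10.54, 10.19 and 10.27, against 12.40, 12.08 and 5.89 in controls. The 3 TGF-β1 arrays lay close together, and Slc7a3 fell by 1.73 ± 0.25 (3.31-fold, adjusted p = 0.0022). Slc7a5, the light chain of the carrier of large neutral amino acids such as leucine, was at 9.72, 9.55 and 9.28, against 11.07, 10.71 and 7.49 in controls, and fell by 1.15 ± 0.18 (2.22-fold, adjusted p = 0.0038).

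All 3 of these transporters passed in the 4-array fit (Slc7a3 adjusted p = 0.0124, Slc7a5 adjusted p = 0.0238). The other 3 did not pass in either fit. Slc3a2, the heavy chain that carries the Slc7a5 and Slc7a11 subunits to the membrane, was at 11.35, 11.36 and 11.46 in TGF-β1 glands, against 12.01, 11.95 and 8.27 in controls (-0.58, adjusted p = 0.0682). Slc7a1, another carrier of arginine and lysine, differed by -0.68 (adjusted p = 0.0635) and Slc6a9, a glycine transporter, by -0.43 (adjusted p = 0.241). Of 18 amino acid transporters outside the list, 2 fell and 0 rose, with a median of -0.17. These 2 were Slc7a7, by 0.98 ± 0.20, and Slc7a8, by 1.02 ± 0.24, both light chains that pair with Slc3a2, and neither passed in the 4-array fit.

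**Figure D2:**
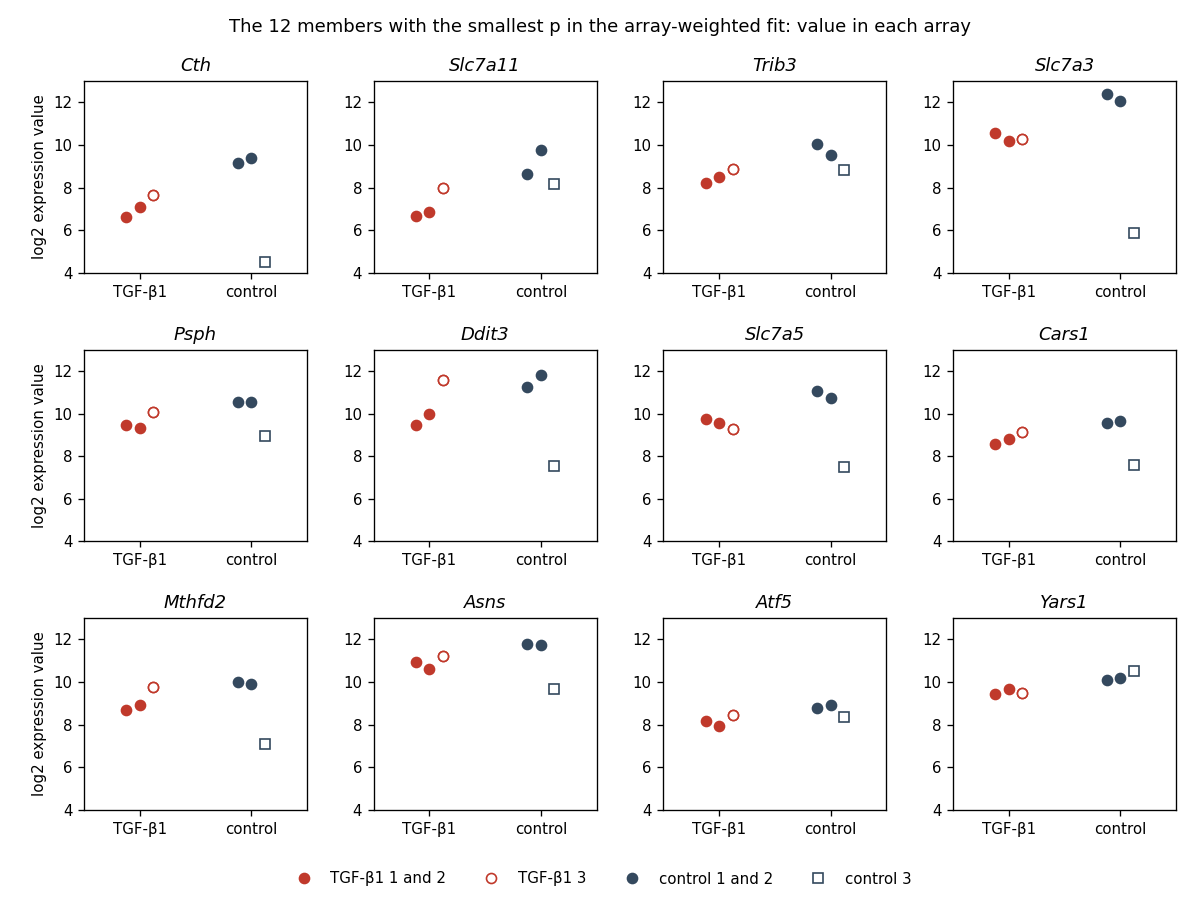
The log2 expression value in each array for the 12 members with the smallest p in the array-weighted fit (red TGF-β1 with TGF-β1 3 open; dark control with control 3 as an open square). Filled red points lie under the filled dark points in every panel; the open square lies under all red points for Cth, Slc7a3, Slc7a5, Psph, Ddit3, Cars1, Mthfd2 and Asns and above them for Slc7a11 and Yars1.

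Of the 11 measured enzymes of amino acid and one-carbon metabolism, 6 fell, and their median was -0.69. Cth, cystathionine γ-lyase, which releases cysteine in the transsulfuration pathway, had the smallest p of all members. It was at 6.62, 7.07 and 7.66 in TGF-β1 glands, against 9.17, 9.38 and 4.49 in controls. Control 3 was far below every other array, and all 3 TGF-β1 arrays lay under controls 1 and 2. Cth fell by 2.47 ± 0.24 (5.54-fold, adjusted p = 2.31e-04), with a difference of -2.43 in the 4-array fit (adjusted p = 0.0068). Both routes to cysteine in the list, its import as cystine through Slc7a11 and its synthesis by Cth, had the 2 largest differences of the members in the array-weighted fit and in the 4-array fit.

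Psph, the phosphatase that ends the serine pathway, was at 9.46, 9.33 and 10.05 in TGF-β1 glands, against 10.53, 10.52 and 8.95 in controls, and fell by 1.07 ± 0.16 (2.09-fold, adjusted p = 0.0024). The earlier enzymes of that pathway did not pass. Phgdh, its first step, was at 9.34, 9.64 and 9.20, against 9.85, 10.10 and 8.21 in controls (-0.59, adjusted p = 0.0514). Psat1, the middle step, was at 9.48, 9.95 and 8.88, against 10.10, 9.63 and 7.18 in controls, with TGF-β1 2 between controls 1 and 2 (-0.14, interval -0.60 to 0.33). Asns, asparagine synthetase, was at 10.95, 10.63 and 11.23, against 11.80, 11.72 and 9.66 in controls. It fell by 0.87 ± 0.16 (1.83-fold, adjusted p = 0.0087), with all 3 TGF-β1 arrays under controls 1 and 2 as for Psph.

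Mthfd2, a mitochondrial folate enzyme, was at 8.70, 8.92 and 9.77 in TGF-β1 glands, against 9.99, 9.91 and 7.11 in controls. TGF-β1 3 lay just under control 2, and Mthfd2 fell by 1.08 ± 0.19 (2.12-fold, adjusted p = 0.0063). Aldh1l2, a mitochondrial enzyme that oxidises formyl-tetrahydrofolate, was at 6.88, 7.33 and 6.48, against 8.73, 7.85 and 6.01 in controls, and fell by 1.07 ± 0.24 (adjusted p = 0.0195). Controls 1 and 2 also differed clearly in it. Aldh18a1, which starts proline synthesis from glutamate, was at 9.25, 8.90 and 8.99, against 9.96, 9.76 and 9.31 in controls, with no overlap, and fell by 0.69 ± 0.15 (adjusted p = 0.0206).

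In the 4-array fit Cth, Psph, Mthfd2 and Asns passed (adjusted p = 0.0068 to 0.0349), and Aldh1l2 (0.0913) and Aldh18a1 (0.0718) did not. The remaining enzymes did not pass in either fit. Shmt2, which feeds serine into mitochondrial one-carbon units, differed by -0.68 (adjusted p = 0.0708), Gpt2, a mitochondrial alanine aminotransferase, by -0.57 (adjusted p = 0.0506) and Pck2, the mitochondrial form of phosphoenolpyruvate carboxykinase, by -0.23 (adjusted p = 0.398).

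Of the 11 measured tRNA synthetases of the list, 4 fell, and all 11 differences lay between -0.93 and -0.26. Their median of -0.60 was the closest to 0 of the 5 role groups. Cars1, which charges cysteine, was at 8.57, 8.81 and 9.12 in TGF-β1 glands, against 9.56, 9.65 and 7.57 in controls, and fell by 0.93 ± 0.16 (1.91-fold, adjusted p = 0.0054; adjusted p = 0.0365 in the 4-array fit). Gars1, for glycine, was at 11.02, 10.83 and 11.26, against 11.70, 11.63 and 9.01 in controls, and fell by 0.66 ± 0.16 (adjusted p = 0.0293). Yars1, for tyrosine, was at 9.46, 9.67 and 9.48, against 10.08, 10.21 and 10.54 in controls. Control 3 was its highest array, the groups did not overlap, and it fell by 0.64 ± 0.14 (adjusted p = 0.0177).

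Sars1, for serine, was at 9.35, 9.74 and 9.50 in TGF-β1 glands, against 10.21, 10.10 and 8.05 in controls, and fell by 0.64 ± 0.17 (adjusted p = 0.0410). Of the 4, Cars1 alone passed in the 4-array fit. The enzymes for asparagine (Nars1, -0.61), glutamate and proline (Eprs1, -0.60), threonine (Tars1, -0.50), methionine (Mars1, -0.49), isoleucine (Iars1, -0.49), leucine (Lars1, -0.45) and tryptophan (Wars1, -0.26) did not pass, with adjusted p between 0.0606 and 0.398.

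Synthetases outside the list give a comparison by role. Of 7 measured other cytosolic synthetases, 0 fell and 0 rose, and their median difference was -0.06 (-0.18 in the 4-array fit). Negative differences were seen in 6 of the 7, down to -0.39, which lies within the range of the listed synthetases. The one of smallest p, Qars, for glutamine, was at 11.66, 11.51 and 11.60 in TGF-β1 glands, against 11.09, 11.14 and 8.49 in controls (0.49, adjusted p = 0.0893). Of 15 measured mitochondrial synthetases 1 fell, Wars2, by 0.53 ± 0.14 (adjusted p = 0.0449; adjusted p = 0.0911 in the 4-array fit), and their median was 0.03. Whether the listed synthetases differ from these others was not tested.

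**Figure D3:**
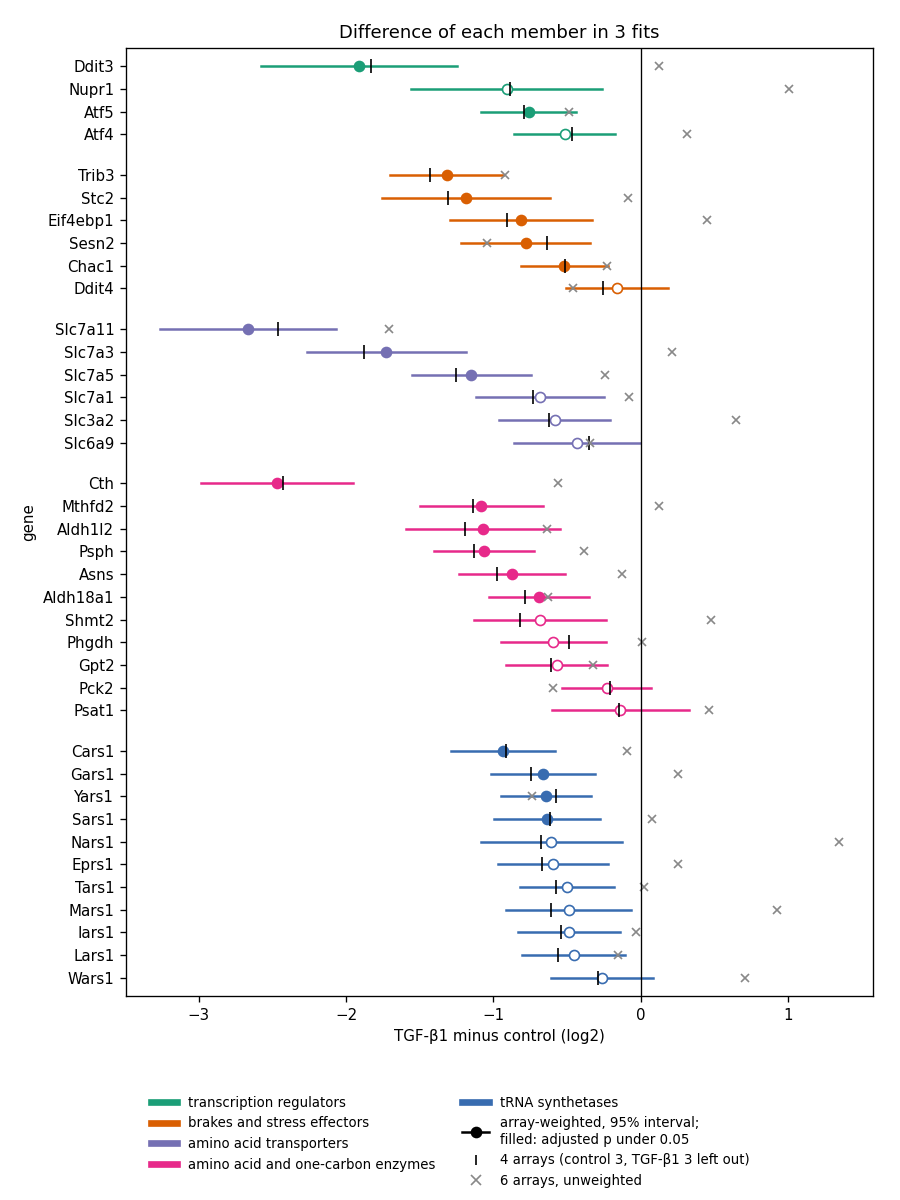
TGF-β1 minus control on the log2 scale for each member: circles and bars give the array-weighted difference with its 95% interval (filled where adjusted p was under 0.05), ticks the 4-array fit and crosses the unweighted fit. Circles and ticks lie left of 0 for all 38 members; 17 crosses lie right of 0.

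Upstream of ATF4 stands the sensing machinery of kinases and phosphatases. Of 8 measured genes for eIF2α kinases, phosphatase subunits and related factors, 1 fell, 0 rose and the median was 0.01. Impact, which restrains the amino acid sensing kinase GCN2, was at 9.77, 9.84 and 9.61 in TGF-β1 glands, against 10.35, 10.80 and 7.19 in controls, and fell by 0.88 ± 0.19 (adjusted p = 0.0165; adjusted p = 0.0836 in the 4-array fit). The kinases differed little, Eif2ak4 (GCN2) by 0.06 and Eif2ak3 (PERK, the kinase of endoplasmic reticulum stress) by -0.03. Transcript levels do not report on the kinases' activity or on eIF2α phosphorylation.

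Of 22 other described ATF4 targets and partners, 3 fell and 0 rose, with a median of -0.29. Bcat1, the cytosolic branched-chain aminotransferase, was at 7.08, 7.04 and 9.16 in TGF-β1 glands, against 9.71, 9.90 and 7.78 in controls, and fell by 2.65 ± 0.26 (adjusted p = 2.56e-04). Cdkn1a fell by 2.59 ± 0.39 and Gadd45a by 1.07 ± 0.18 (adjusted p = 0.0051); both are also targets of p53, and all 3 passed in the 4-array fit. The stress factor Atf3 (-0.59, adjusted p = 0.166) and Cebpb (-0.05), a C/EBP partner of ATF4, did not pass.

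The other branches of the unfolded protein response, which answer the same stress through IRE1 and ATF6, gave 2 falls and 0 rises among 19 measured genes, with a median of -0.03. Atf6 fell by 0.63 ± 0.16 (adjusted p = 0.0349) and Dnajb9, a chaperone partner induced by XBP1, by 0.89 ± 0.24 (adjusted p = 0.0470); of the pair, Dnajb9 passed in the 4-array fit. Xbp1 differed by 0.58 (adjusted p = 0.0927) and Hspa5, the main chaperone BiP, by -0.50 (adjusted p = 0.123). Of 16 genes of mTORC1 and its regulators, 0 fell and 2 rose, with a median of -0.07. Sesn1, a relative of Sesn2 that p53 induces, rose by 0.93 ± 0.17 (adjusted p = 0.0073), opposite in sign to Sesn2, and Deptor, an inhibitor of mTOR, rose by 1.15 ± 0.22 (adjusted p = 0.0099; adjusted p = 0.139 in the 4-array fit). Of the 13 genes that every cell uses, 0 passed, with a median of 0.07. The one of smallest p, B2m, the light chain of class I histocompatibility molecules, was at 9.37, 9.62 and 11.97 in TGF-β1 glands, against 10.17, 10.72 and 7.80 in controls (-0.96, adjusted p = 0.101).

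**Figure D4:**
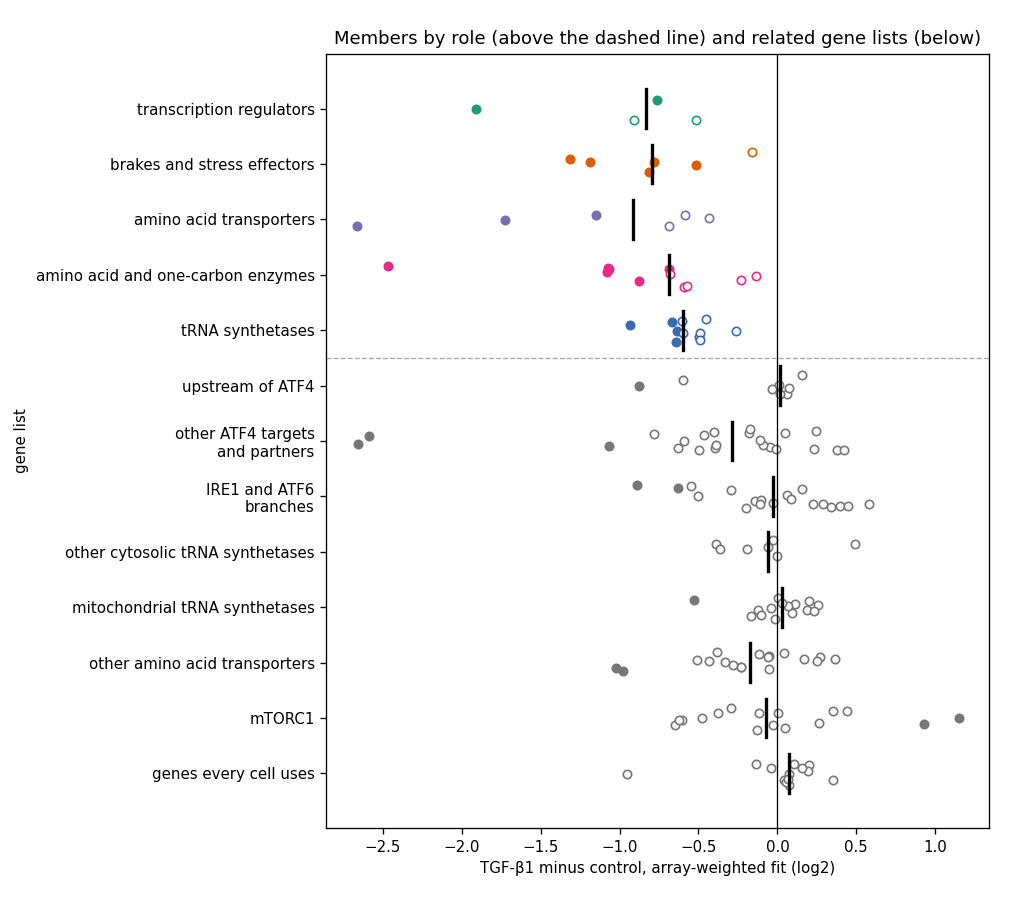
Each point is a gene, placed by its TGF-β1 minus control difference in the array-weighted fit (log2; filled where adjusted p was under 0.05), with a black bar at the median of its list. The 5 role groups of the members have medians from -0.92 to -0.60, and the other 8 lists from -0.29 to 0.07.

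Markers of several cell types also differed between the groups. All 9 measured markers of acinar and secretory cells rose, and their mean log2 value was 10.23 to 10.66 in TGF-β1 glands, against 6.59 to 7.69 in controls. Those of smallest p were the salivary protein Bpifa2, which rose by 7.87 ± 0.57, the chloride channel gene Ano1, by 2.18 ± 0.17, and the secreted protein Pip, by 4.29 ± 0.38. All 9 passed in the 4-array fit too. Bpifa2 was at 13.49, 12.99 and 13.79 in TGF-β1 glands, against 7.68, 4.65 and 6.22 in controls. Its controls lay far apart, and control 2 was under the lower quartile of its array (5.13), so the size of this rise is uncertain. Of 10 markers of gland epithelium Epcam, Cldn3 and Sox10 rose and 0 fell. The mean of these 10 was 9.86 to 10.62 in TGF-β1 glands, against 9.78, 9.57 and 7.72 in controls 1 to 3. The low end among the controls was thus control 3 alone. The differences of Krt14 (-0.59), Krt19 (-0.56) and Krt5 (-0.49) were negative and did not pass. Of 9 markers of mesenchyme 0 rose and 2 fell, Fgf10 and Twist1, and 8 of the 9 differences were negative (median -0.44). The mean of these markers was 9.10 to 9.38 in TGF-β1 glands, against 9.45, 9.87 and 7.19 in controls 1 to 3. In TGF-β1 glands and in controls 1 and 2, no epithelial or mesenchymal marker lay under the lower quartile of its array. In the same arrays 1 to 3 of the 7 endothelial markers and 1 to 3 of the 6 neuronal and glial markers did. Of 7 endothelial markers Kdr fell, of 6 neuronal and glial markers 4 rose, of 6 cartilage markers 2 rose, and among 6 leukocyte, 7 muscle and 2 erythroid markers none passed. Elavl4, 1 of the 4 neuronal and glial markers that rose, lay under the lower quartile in every array (4.61 to 4.92 in TGF-β1 glands, 4.01 to 4.81 in controls). The cartilage markers Col2a1 (-0.50) and Acan (-0.015) had negative differences that did not pass. In the 4-array fit 2 epithelial markers (not Epcam, adjusted p = 0.124), 1 mesenchymal marker (not Twist1, adjusted p = 0.0716), Kdr, 1 neuronal and glial marker and 1 cartilage marker passed. The part of these shifts in the members' differences was not tested, and in whole glands fewer cells of a type and less RNA per cell cannot be told apart.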

How the data were processed

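Salivary glands of mouse embryos were profiled on 6 Affymetrix arrays, from biotin-labelled cRNA made of 6 µg of total RNA per the labels' protocols. The deposited table holds log2 expression values per probe set, made by the authors with RMA (background correction, normalization between arrays and 1 summary value per probe set) per the submitters' processing notes, which give no version. Control 3 had an interquartile range of 2.05 and the other arrays 3.17 to 3.26. No filter or further scaling was applied, and 0 columns were unmapped. Of 22206 probe sets, 19572 had 1 gene symbol in the platform annotation, 0 had several and 2634 were unnamed. Where a gene had several probe sets, the one with the highest mean was kept, giving 19505 genes.

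Differences between the groups came from limma 3.58.1 under R 4.3.3 (linear model with moderated variance, two-sided, group as the only term, Benjamini-Hochberg adjustment over 19505 genes, threshold 0.05), with equal weights and with arrayWeights. The weight estimation stopped before its tolerance, also with up to 5000 iterations. Each fit was also run on simulated arrays in which 100 genes changed by 1 log2 unit and 100 by 2. There the array-weighted fit called 84% and 98% of these, and 82 unchanged genes, far more than its threshold allows. Its adjusted p-values thus understate the share of false calls. Neither the unweighted nor the 4-array fit called an unchanged gene. Arrays carry no read depth, so their number limits the precision.

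The members, the related gene lists and the choice of the array-weighted fit for saying that a gene rose or fell were made with earlier results of these data known. Members that passed the array-weighted fit are given with every array value; from every other pathway list the text names at most 3 passing genes in each direction, or else the gene with the lowest p, and Eif2ak4, Eif2ak3, Atf3, Cebpb, Xbp1, Hspa5 and Gapdh were added for their role. Promoters came from the RefSeq table of GRCm38.p6; 31 of 40 members had an entry. The alternatives were other scalings, a filter on low values, other uses of probe sets, another prior, the replicate number as a block, other weights and arrays left out.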

Additional observations from a re-analysis of the deposited data

How the results depend on the processing

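The count of members that passed was 0 with equal weights (0 of all genes), against 20 with one weight per array (1342 genes), 16 with gene-by-gene weights (938), 11 in the 4-array fit (505) and 15 where control 3 was dropped and the other 5 arrays were weighted (544). Against the 20, it was 10 at an adjusted p under 0.01 (538 genes), 11 after quantile normalization (486), 8 after median centring (283) and 34 with the filter on low values (4349 of 13003 genes then passed). With 1 array left out it was 0 to 15, namely 15 without control 3, 6 without TGF-β1 3 (375 genes) and 0 without any 1 of the other 4 (0 to 12 genes). Without TGF-β1 1, 2 or 3 the weight of control 2 was 0.0544, 0.0753 or 0.0118, below that of control 3 (0.161, 0.1465 or 0.116). The weight of control 1 was 10.4, 9.17 or 6.90, so the controls there were nearly control 1 alone. The cause of these counts was not tested. With the replicate block the count was 29 in the array-weighted fit, where 2502 genes passed, and 0 with equal weights. Same-numbered arrays did not deviate together (r = -0.066, -0.0078 and -0.050 across genes). Each deviation was taken from the mean of its group, which control 3 shifts, so this check cannot exclude pairs. The labels state no pairing, and the numbers were not taken as pairs. With equal weights and 1 array left out, the median difference was -0.66 to 0.32 over the members, -0.63 to 0.45 over the tRNA synthetases and -0.82 to 0.21 over the enzymes. Array-weighted, all 38 members stayed negative in the alternatives with 6 arrays, except Psat1 with the replicate block (0.055), and without control 3, without TGF-β1 3 or without both. With equal weights 17 were positive on the log2 scale: Atf4 0.32, Ddit3 0.12, Nupr1 1.01, Slc7a3 0.21, Slc3a2 0.65, Psat1 0.47, Phgdh 0.0080, Shmt2 0.48, Mthfd2 0.13, Eif4ebp1 0.45, Eprs1 0.26, Gars1 0.25, Mars1 0.93, Nars1 1.35, Sars1 0.074, Tars1 0.021 and Wars1 0.71. With 1 array left out and the rest weighted, 27 members changed sign where control 1 or control 2 was dropped, and Nupr1 and Eif4ebp1 also where TGF-β1 2, or for Nupr1 TGF-β1 1, was dropped; the ranges were Atf4 -0.46 to 0.74, Ddit3 -1.81 to 0.34, Asns -0.98 to 0.17, Nupr1 -0.88 to 1.11, Stc2 -1.70 to 0.53, Slc7a5 -1.60 to 0.54, Slc7a3 -2.07 to 1.42, Slc7a1 -1.37 to 0.78, Slc3a2 -0.62 to 1.25, Psat1 -0.87 to 1.20, Phgdh -0.55 to 0.41, Shmt2 -1.17 to 1.39, Mthfd2 -1.14 to 0.33, Aldh1l2 -1.999 to 0.073, Cth -2.45 to 0.0057, Gpt2 -0.999 to 0.083, Eif4ebp1 -0.79 to 0.57, Cars1 -0.93 to 0.12, Eprs1 -0.89 to 0.85, Gars1 -0.74 to 0.65, Iars1 -0.88 to 0.48, Lars1 -0.88 to 0.27, Mars1 -0.63 to 1.38, Nars1 -0.67 to 2.21, Sars1 -0.75 to 0.41, Tars1 -0.62 to 0.15 and Wars1 -0.26 to 1.07. More iterations of the weight estimation did not converge, and that alternative is given as not run. The number of arrays, with control 3 apart from the rest, limits the precision, and no measure of signal over background was used here.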
